A study of Mus musculus with 25 samples.

Results

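The matrix metalloproteinases (MMPs) are zinc enzymes that cut collagens and other proteins of the extracellular matrix, and the tissue inhibitors of metalloproteinases (TIMPs) block them. The 10 genes described here were given as a list of symbols (Mmp2, Mmp3, Mmp8, Mmp9, Mmp14, Mmp15 and Timp1 to Timp4) and were found as 10 of the 56941 genes counted in 25 mouse hearts. The genes were chosen by their family, with measured values of these hearts already known: the counts of Mmp9 had been seen to differ between the Ang/PE and saline hearts labelled MCT1KO. For that reason the values of all 10 in that comparison are given below as a description, from which nothing is concluded. Other comparisons that contain either of these groups share their hearts and are not independent of the choice of Mmp9. A filter on low counts left 17682 genes, including 9 of the 10; Mmp8 did not pass it.

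Most MMPs are secreted as inactive proenzymes, and a few, such as Mmp14 and Mmp15, are anchored in the cell membrane. Proenzymes are activated by removal of a propeptide, and each TIMP binds the active site of several MMPs. In the heart, fibroblasts, endothelial cells, muscle cells and leukocytes all make some of them, and their balance is known for its part in matrix turnover during remodelling. Activity is regulated largely after translation, so RNA levels are not enzyme activities.

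The study asked how lactate metabolism bears on cardiac hypertrophy. Hearts came from wild-type (WT) mice and from mice labelled MCT1KO, MCT1 being the lactate and pyruvate transporter encoded by Slc16a1. Each genotype was studied without a pump (4 WT, 3 labelled MCT1KO), with saline (6 WT, 4 labelled MCT1KO) and with Ang/PE, neurohormonal agonists that cause hypertrophy (3 WT, 5 labelled MCT1KO). The strain, age, sex, dose, infusion time and the tissue or promoter of the deletion are not given in the sources used here. Nothing says that the hearts came from separate litters or days, so p-values measure only the spread between these hearts, each counted as 1 replicate.

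Total counts per heart, in units of 10⁶, ran from 12.2 to 24.9, with group means from 20.5 without a pump down to 13.97 in Ang/PE hearts labelled MCT1KO. Slc16a1 was between 132 and 249 CPM (counts per 10⁶ counts of the library) in all 25 hearts and was not lost in those labelled MCT1KO, for which reason they are called labelled MCT1KO throughout. The 6 genes listed as markers of ventricular muscle (Myl2, Myl3, Myh6, Tnnt2, Actn2 and Ryr2) summed to at least 28835 CPM in every heart. Myh6 had the largest median of them, 28410 CPM, so the sum follows it most. Myl2 ran from 839 to 5647 CPM (median 4512) and Myl3 from 592 to 4193 CPM (median 3300). Markers of atrial muscle (Myl4, Myl7 and Sln) set the saline hearts apart. Their sum was at least 18.4 CPM in 8 of the 10 saline hearts and at most 5.73 CPM in every heart without saline. The other two saline hearts, WT replicate 1 (2.03 CPM) and MCT1KO replicate 3 (1.4996 CPM), lacked this signal. Saline replicate 4 labelled MCT1KO had the highest sum, 3679 CPM, and also the highest sum of 5 fat cell markers, 1069 CPM, against at most 0.572 CPM in any heart without saline. Xist exceeded the Y-linked Ddx3y in 13 of 25 hearts, and these were spread unevenly over the groups. Among WT hearts they were 2 of 4 without a pump, 1 of 6 given saline and 3 of 3 given Ang/PE, and among those labelled MCT1KO 0 of 3, 3 of 4 and 4 of 5.

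Levels were first compared between the genes as CPM per kilobase of exon, which corrects for gene length. Over the 25 hearts, Timp2 (38.3 ± 10.001, SD) and Timp3 (37.6 ± 9.98) were the most abundant, followed by Mmp15 (26.9 ± 5.75) and Mmp2 (24.8 ± 8.92). Timp4 (7.61 ± 3.96), Mmp14 (4.24 ± 0.840), Timp1 (3.07 ± 2.71) and Mmp3 (2.24 ± 1.15) came next. Mmp9 stood at 0.771 ± 0.454 CPM per kilobase and Mmp8 at 0.0373 ± 0.0580. The neighbours Timp2 and Timp3, Mmp15 and Mmp2, Timp4 and Mmp14, Mmp14 and Timp1, and Timp1 and Mmp3 each differed by less than the larger of their SDs, and the other steps in this order were larger than that. The RNA of these hearts therefore held mainly 2 inhibitors, 1 membrane-bound MMP and 1 gelatinase.

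The summed level of the 4 inhibitors exceeded that of the 6 MMPs in every heart, with a ratio between 1.07 and 2.63 on the per-kilobase scale. In WT hearts the ratio averaged 1.84 ± 0.563 (SD, n = 4) without a pump, 1.27 ± 0.125 (n = 6) with saline and 1.85 ± 0.264 (n = 3) with Ang/PE. For the MCT1KO label the averages were 1.44 ± 0.159 (n = 3), 1.49 ± 0.454 (n = 4) and 1.35 ± 0.370 (n = 5). The groups that the design compares overlapped, except that the 3 WT Ang/PE hearts (1.65 to 2.15) lay above the 6 WT saline hearts (1.12 to 1.39).

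**Figure D1:**
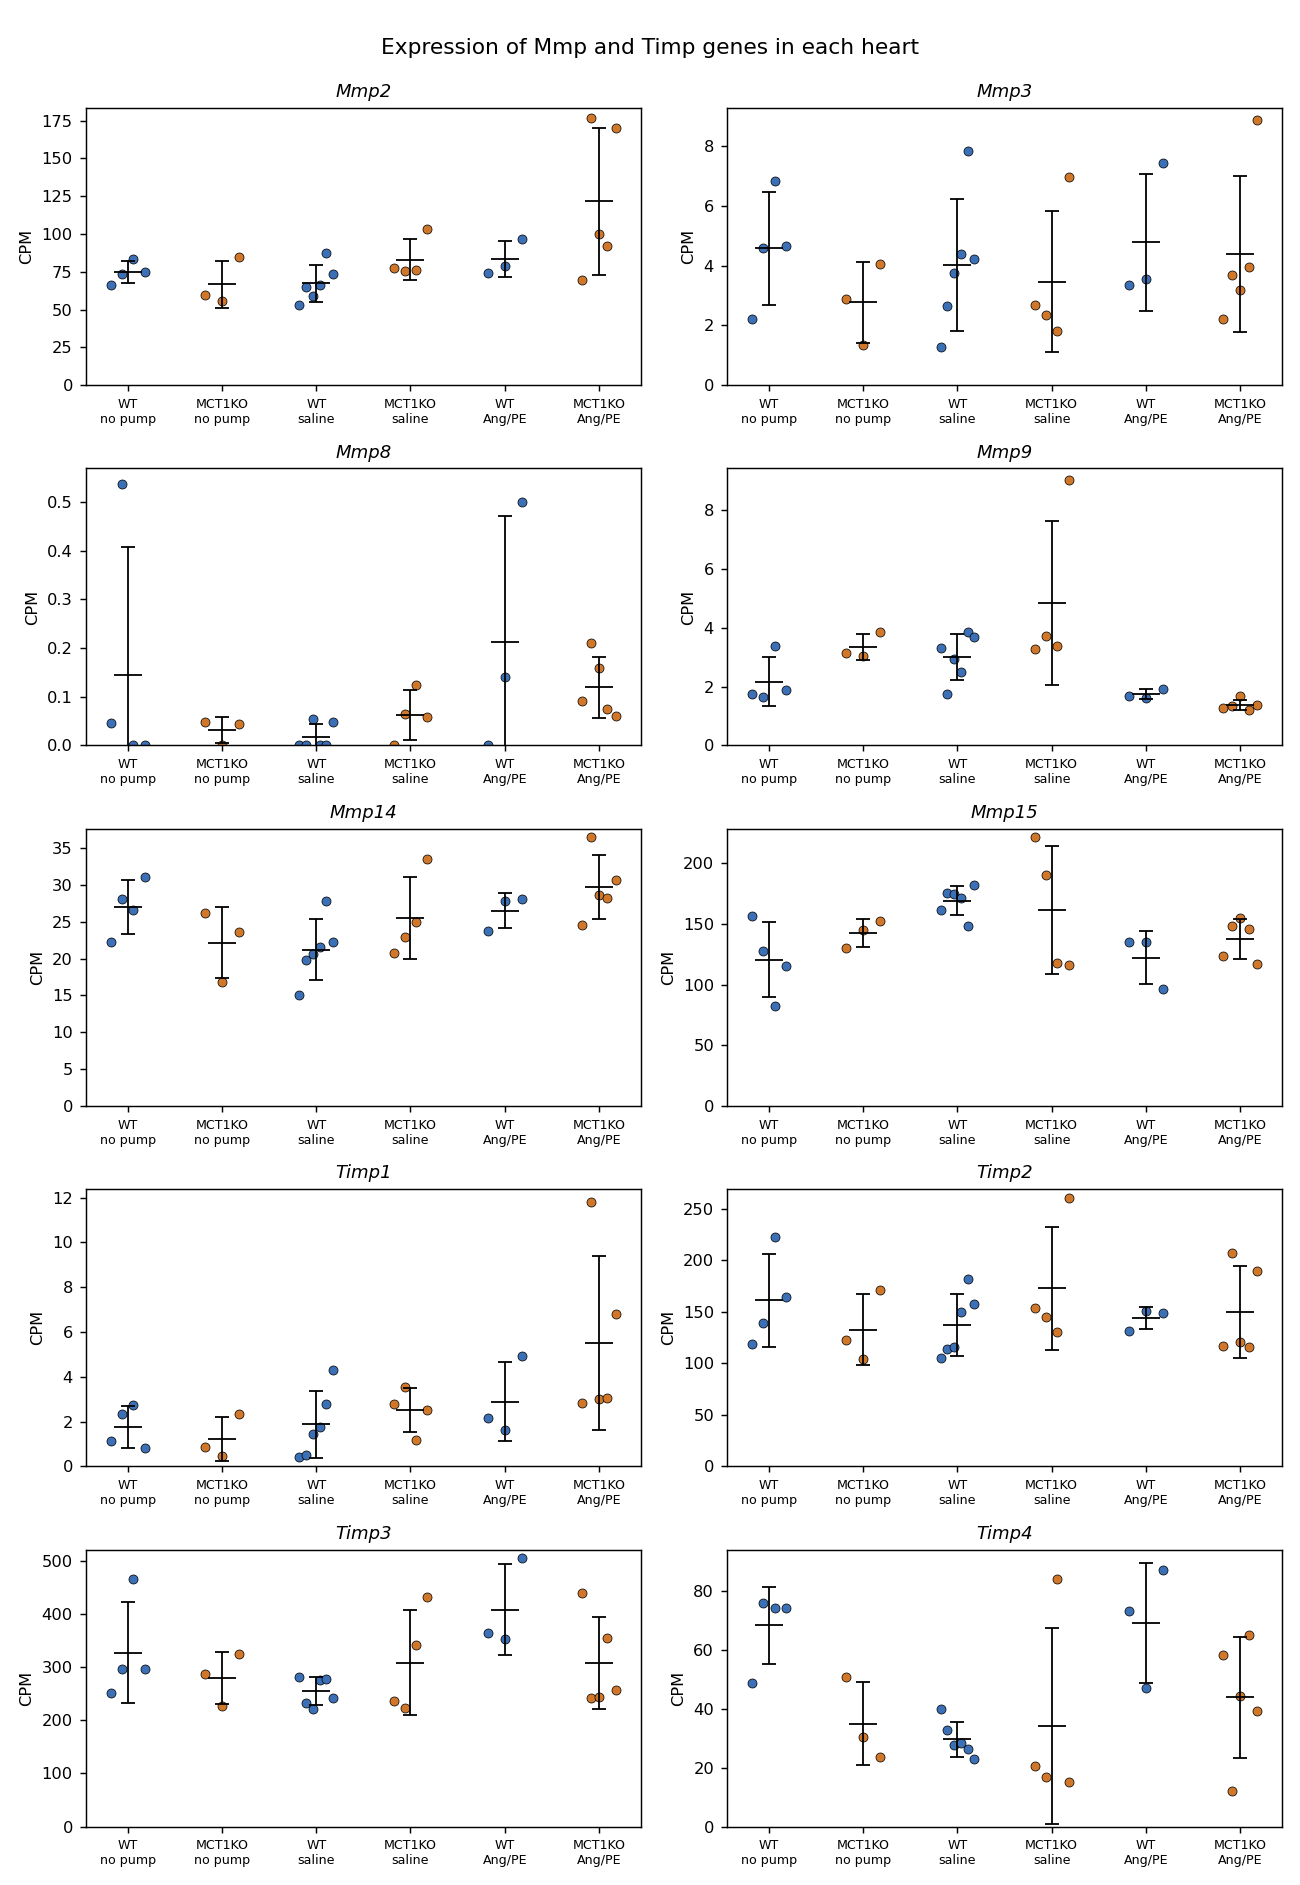
CPM of the 10 genes (one panel each, linear axis from 0) in every heart, by genotype and treatment; points are hearts, and the dash and bars are the group mean ± SD. Among hearts labelled MCT1KO, Mmp9 is 1.20 to 1.67 CPM with Ang/PE and at least 3.05 CPM in the others, and Timp4 in saline hearts labelled MCT1KO runs from 15.2 to 84.1 CPM.

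Mmp9 (ENSMUSG00000017737) encodes gelatinase B, which cleaves denatured collagen and basement membrane collagen and is made by leukocytes among other cells. Its counts were low, at 14 to 153 reads per heart, so counting error alone is a visible part of its spread. Without a pump it was 1.76, 1.66, 3.40 and 1.88 CPM in WT and 3.14, 3.05 and 3.84 CPM in hearts labelled MCT1KO. With saline, WT hearts ran from 1.76 through a median of 3.12 to 3.86 CPM, and hearts labelled MCT1KO had 3.28, 3.73, 3.37 and 9.02 CPM. With Ang/PE the values were 1.67, 1.61 and 1.93 CPM in WT and 1.28, 1.33, 1.67, 1.20 and 1.38 CPM in hearts labelled MCT1KO. All 5 Ang/PE hearts labelled MCT1KO were below all 7 other hearts of that label, and saline replicate 4 stood far above the rest.

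Against hearts without a pump, Ang/PE hearts labelled MCT1KO had an Mmp9 log2 fold change of -1.28 ± 0.31 (SE) and did not overlap with them. No saline heart is in the groups compared, but the SE and p-value come from the model fitted to all groups, saline hearts included. The Ang/PE hearts are also the same 5 in which the gene had been noticed, so this comparison is not independent support. The change did not pass the threshold of 0.05 in edgeR's quasi-likelihood test with Benjamini-Hochberg adjustment over all genes (adjusted p = 0.0592, lower in 5 of 5 hearts). Over the other ways of processing the counts its adjusted p ran from 0.0156 to 0.257, and from 0.0568 to 0.238 when each heart was left out in turn. DESeq2 gave 0.0156. The highest value, 0.257, came with the Xist level as a covariate, which goes with the 0 of 3 and 4 of 5 hearts above Ddx3y in these groups; the part of sex in the difference was not tested beyond this covariate. In WT, the same comparison gave -0.32 ± 0.34 (adjusted p = 0.824).

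Against saline, the log2 fold change of Mmp9 in Ang/PE hearts labelled MCT1KO was -1.82 ± 0.29, the comparison in which the gene had been noticed. It was -1.34 without saline replicate 4. In saline replicate 3, which lacked the atrial signal, Mmp9 was 3.37 CPM, close to replicates 1 and 2 and above every Ang/PE heart. Without the 8 saline hearts that carried the signal the log2 fold change was -1.30, with that 1 heart left as the saline group. The part of the atrial signal in the Mmp9 values was not tested, as 1 heart cannot show it. In WT, Ang/PE against saline gave -0.79 ± 0.32 (adjusted p = 0.178), and the groups overlapped. The difference between the genotypes in this response, which contains the comparison used in the choice, was -1.03 ± 0.43 and is given as a value only.

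Mmp9 was higher in hearts labelled MCT1KO than in WT by a log2 fold change of 0.62 ± 0.31 without a pump and 0.69 ± 0.26 with saline, but neither passed the test (adjusted p = 0.421 and 0.197). The saline value was 0.21 without saline replicate 4 labelled MCT1KO and 0.04 without the 8 saline hearts that carried the atrial signal. With Ang/PE the sign was the opposite, at -0.34 ± 0.34 (adjusted p = 0.854). Saline against no pump gave 0.47 ± 0.27 in WT and 0.53 ± 0.31 in hearts labelled MCT1KO (adjusted p = 0.293 and 0.505).

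Neutrophils are a known source of Mmp8 and Mmp9. Of 11 neutrophil markers, 2 passed the low-count filter (S100a8 and Csf3r). Ly6g and Mpo had 0 counts in all 25 hearts, while Csf3r had a count in all 25 and S100a9 in 23. The summed level of the 11 was 0.733 to 6.77 CPM. It was 1.85 to 2.48 CPM in the saline hearts labelled MCT1KO and 1.05 to 6.77 CPM in their Ang/PE hearts, and its part in the Mmp9 values was not tested. Macrophage markers (8 genes, all past the filter) summed to 295 to 390.5 CPM in those saline hearts and 255 to 466 CPM in the Ang/PE hearts. In RNA of heart tissue, fewer cells of a type and less RNA per cell cannot be told apart.

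**Figure D2:**
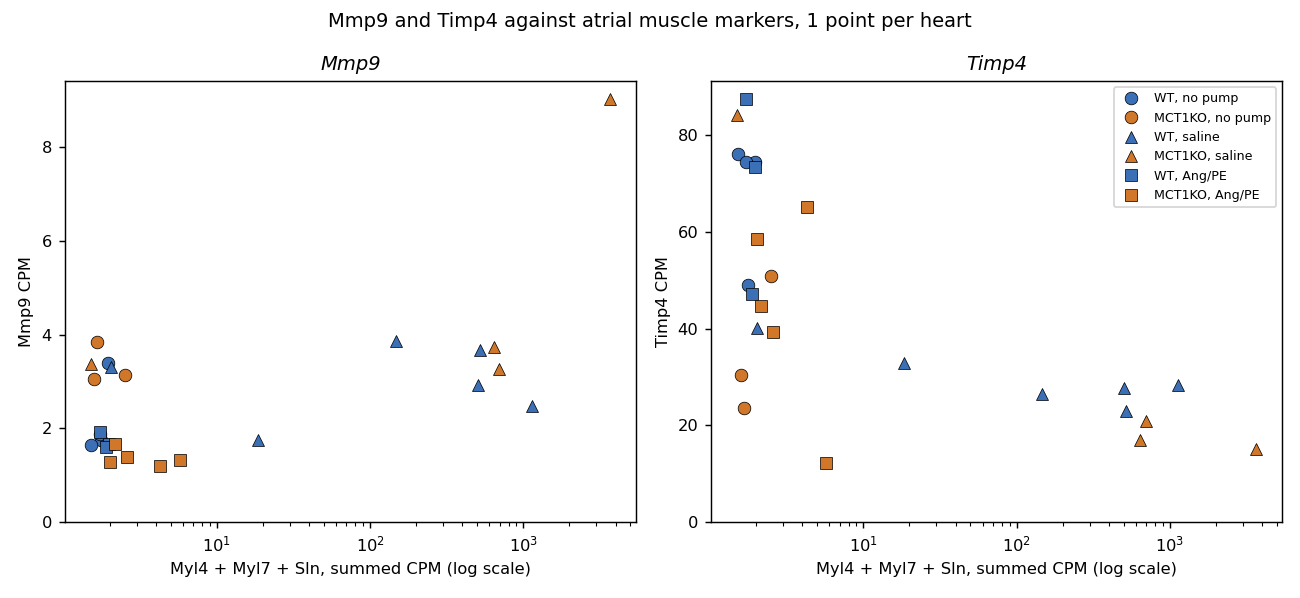
CPM of Mmp9 (left) and Timp4 (right) in each heart against the summed CPM of the atrial muscle markers Myl4, Myl7 and Sln (log axis); colour gives the genotype and the marker shape the treatment. The saline heart labelled MCT1KO without the atrial signal (1.4996 CPM) has 3.37 CPM of Mmp9, like 2 of the other saline hearts, but 84.1 CPM of Timp4, against 15.2 to 20.8 CPM in the other 3.

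Mmp8 (ENSMUSG00000005800), neutrophil collagenase, had 37 reads in all. It was without a read in 9 of 25 hearts, where a count of 0 allows up to 0.150 to 0.188 CPM (3 counts, for counting error only), and 14 hearts had 1 to 3 reads. The highest levels were 0.536 CPM in WT replicate 2 without a pump and 0.500 CPM in WT Ang/PE replicate 3. It was not tested. In hearts labelled MCT1KO the levels were 0 to 0.0491 CPM without a pump (0 to 1 reads) and 0.0600 to 0.209 CPM with Ang/PE (1 to 3 reads). The CPM ranges did not overlap, but the read counts did, as both groups had hearts with 1 read. That 1 read was 0.0491 CPM in replicate 1 without a pump and 0.0600 CPM in Ang/PE replicate 5, whose library was smaller. No difference is read from this gap in CPM. In the other comparisons the Mmp8 groups overlapped.

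Mmp2 (ENSMUSG00000031740) encodes gelatinase A, which fibroblasts secrete and which Mmp14 activates together with Timp2. It was 59.3, 55.8 and 84.7 CPM without a pump in hearts labelled MCT1KO and 69.5, 177, 100.2, 91.7 and 170.0 CPM with Ang/PE. Replicates 2 and 5 were the highest of all 25 hearts, and replicate 1 lay within the range without a pump. The log2 fold change was 0.87 ± 0.24 (adjusted p = 0.0998). It passed the threshold in DESeq2 (adjusted p = 0.0186) and when Ang/PE replicate 1 was left out (0.0328). The adjusted p reached 0.386 over the ways of processing the counts and 0.504 over the other hearts left out in turn.

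In WT hearts Mmp2 was 66.3, 73.8, 83.8 and 75.1 CPM without a pump, 53.2 to 87.6 CPM with saline (median 65.6) and 74.3, 78.8 and 96.7 CPM with Ang/PE. The log2 fold change of Ang/PE was 0.16 ± 0.24 against no pump and 0.30 ± 0.22 against saline (adjusted p = 0.895 and 0.478). The saline hearts labelled MCT1KO had 77.4, 75.3, 76.0 and 103 CPM, a log2 fold change to Ang/PE of 0.55. Between genotypes under Ang/PE, Mmp2 was higher in hearts labelled MCT1KO by 0.55 ± 0.24, which did not pass the test (adjusted p = 0.711).

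Timp1 (ENSMUSG00000001131), the inducible inhibitor that marks activated fibroblasts and other stressed cells, had an SD close to its mean over the 25 hearts. Hearts labelled MCT1KO had 0.883, 0.469 and 2.32 CPM without a pump and 2.83, 11.8, 3.03, 3.07 and 6.78 CPM with Ang/PE. The groups did not overlap, and replicates 2 and 5 were again the highest. The log2 fold change was 2.14 ± 0.70 (adjusted p = 0.172). Over the other ways of processing the counts the adjusted p ran from 0.0385, in DESeq2, to 0.473. With each heart left out in turn it ran from 0.135 to 0.586. With saline, hearts labelled MCT1KO had 2.80, 3.53, 1.19 and 2.54 CPM. WT hearts had 1.13, 2.34, 2.75 and 0.804 CPM without a pump, 0.407 to 4.31 CPM with saline (median 1.61) and 2.15, 1.61 and 4.93 CPM with Ang/PE, with a log2 fold change of 0.71 ± 0.69 (adjusted p = 0.805).

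In the comparison of Ang/PE with no pump in hearts labelled MCT1KO, 0 of the 9 genes passed the threshold in edgeR, where 0.503% of all 17682 genes did. At an unadjusted p below 0.05 there were 4 (Mmp2, Mmp9, Mmp14 and Timp1), against 13.1% of all genes. DESeq2 called 3 (Mmp2, Mmp9 and Timp1). Of the 9, 2 did not overlap between the groups, Mmp9 lower and Timp1 higher, against 8.45% of all genes. The median log2 fold change of the 9 was 0.33, beside -0.0030 for all genes. Fibroblast markers moved with these values. The summed CPM of Pdgfra, Dcn, Lum, Tcf21, Col1a1 and Col3a1 was 722 to 1391 without a pump and 930, 2162, 1148, 1040 and 1830 with Ang/PE, highest in the same replicates 2 and 5. Macrophage markers were also highest in Ang/PE replicates 2 and 5 (466 and 340 CPM, against 255 to 267 CPM in the others). The ventricular sum was lowest there (40270.5 and 37536 CPM). Smooth muscle markers (Myh11, Cnn1, Acta2 and Tagln) were highest in replicate 2 (379 CPM) but not in replicate 5 (184 CPM). The part of these cell types in the Mmp2 and Timp1 values was not tested. Xist exceeded Ddx3y in 0 of 3 hearts without a pump and 4 of 5 with Ang/PE. The part of sex in these values was not tested beyond the Xist covariate. In WT, Ang/PE against no pump gave 0 of 9 calls in edgeR and in DESeq2, 0 at an unadjusted p below 0.05 (9.02% of all genes) and 0 without overlap (10.7% of all genes); 0% of all genes were called.

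**Figure D3:**
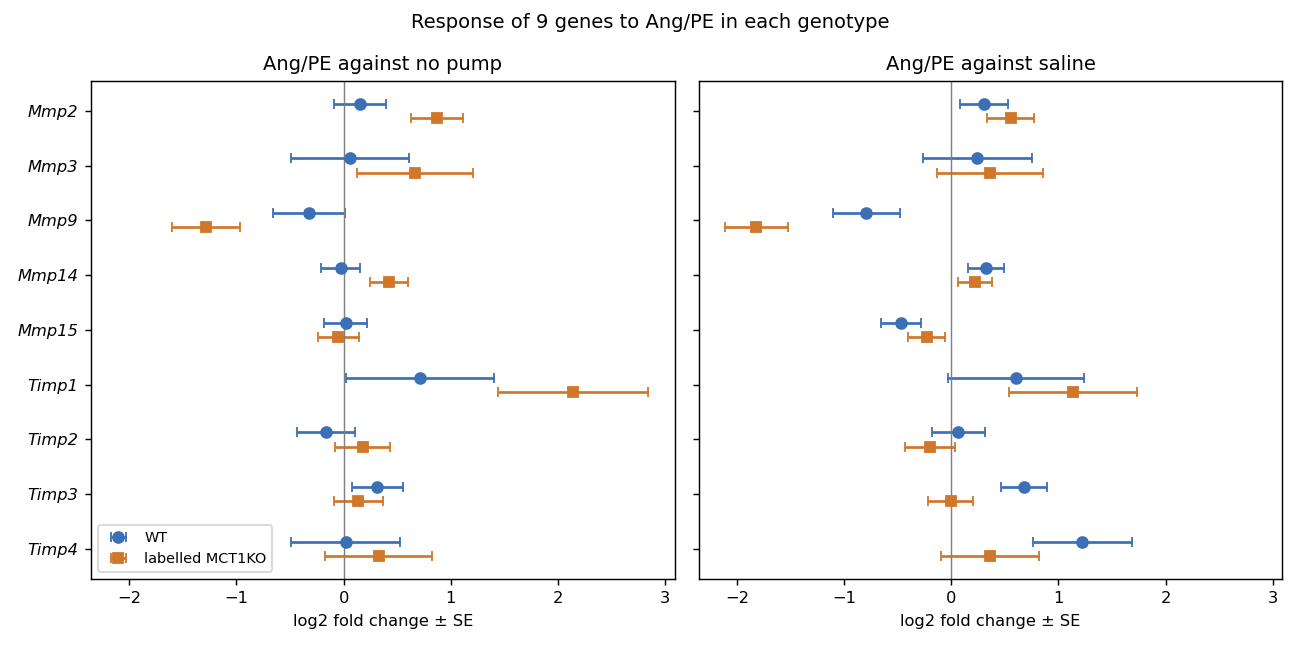
Log2 fold change ± SE of the 9 tested genes under Ang/PE, against no pump (left) and against saline (right), for WT hearts (circles) and hearts labelled MCT1KO (squares). Mmp9 is the lowest value in both panels for hearts labelled MCT1KO, at -1.28 and -1.82, and Timp1 the highest, at 2.14 and 1.14; both panels share the same Ang/PE hearts.

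In WT hearts the inhibitors Timp3 and Timp4 were higher, and the membrane-bound Mmp15 was lower, in every Ang/PE heart than in every saline heart, although none passed the test. Timp3 (ENSMUSG00000020044), which binds to the matrix, was 221 to 281 CPM with saline (median 259) and 363, 352 and 506 CPM with Ang/PE, with no overlap (log2 fold change 0.68 ± 0.21, adjusted p = 0.105). Timp4 (ENSMUSG00000030317), the inhibitor known for its high level in heart muscle, was 22.98 to 40.2 CPM (median 28.0) and 73.4, 47.2 and 87.4 CPM, again with no overlap (1.22 ± 0.46, adjusted p = 0.166). Mmp15 (ENSMUSG00000031790) was 149 to 182 CPM (median 173) and 135, 135 and 96.8 CPM, with no overlap in the other direction (-0.47 ± 0.19, adjusted p = 0.179).

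In edgeR 0 of 9 genes were called, against 0.0170% of all genes. At an unadjusted p below 0.05 there were 4 (these and Mmp9), against 19.1% of all genes, and 3 did not overlap, against 13.6% of all genes. DESeq2 called 1, Timp3 (adjusted p = 0.0459), and a fit of only the groups compared called 3. With the Xist level as a covariate 0 were called and 2 had an unadjusted p below 0.05 (adjusted p = 0.322 for Timp3 and 0.318 for Mmp15). Xist exceeded Ddx3y in 3 of 3 Ang/PE and 1 of 6 saline hearts, and the part of sex was not tested beyond this covariate. With each heart left out 0 were called, and the adjusted p reached 0.623 for Timp3, 0.642 for Timp4 and 0.706 for Mmp15. The median log2 fold change of the 9 was 0.30, beside -0.01 for all genes. The same genes in WT hearts without a pump read 251, 296, 465 and 297 CPM for Timp3, 48.9, 76.1, 74.4 and 74.4 CPM for Timp4, and 157, 128, 82.6 and 115 CPM for Mmp15. All of these Timp4 values exceeded every WT saline value and overlapped with those under Ang/PE. With replicate 1, which lacked the atrial signal, as the only WT saline heart kept, the log2 fold change of Ang/PE was 0.80 for Timp4.

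Saline against no pump in WT gave a log2 fold change of -1.20 ± 0.43 for Timp4 (adjusted p = 0.0907), 0.49 ± 0.17 for Mmp15 (adjusted p = 0.0797) and -0.35 ± 0.15 for Mmp14 (adjusted p = 0.154). In edgeR 0 of 9 genes were called, against 6.61% of all genes, 3 had an unadjusted p below 0.05 (24.3% of all genes) and 1, Timp4, did not overlap (10.3% of all genes). DESeq2 called Mmp15 and Timp4. The median log2 fold change of the 9 was -0.18, beside 0.0020 for all genes. With replicate 1 as the only WT saline heart kept, Mmp14 stood at -0.86 and Timp4 at -0.78. GC content moved with this comparison: across 12815 genes the log2 fold change had a rank correlation of 0.406 with the GC content of the exons, and of -0.390 for Ang/PE against saline in WT. Mmp15 has the highest GC content of the 10 genes, 59.6%, while Timp3 (46.8%) and Timp4 (47.7%) lie below the median of the tested genes, 49.0%. The part of GC content in these values was not tested.

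In hearts labelled MCT1KO, Timp4 was 50.8, 30.5 and 23.6 CPM without a pump, 20.8, 16.95, 84.1 and 15.2 CPM with saline and 58.5, 12.1, 44.6, 65.2 and 39.3 CPM with Ang/PE. The saline heart at 84.1 CPM, replicate 3, is the one without the atrial signal; its part in the level was not tested. The log2 fold change of Ang/PE against saline was 0.36. It was 1.30 without that heart and -0.95 where it was the only saline heart kept. In WT the saline heart without the signal, replicate 1, had the highest Timp4 of its group, 40.2 CPM, below all WT hearts of the other treatments. Without a pump, Timp4 was lower in hearts labelled MCT1KO than in WT by -0.97 ± 0.52 on the log2 scale, which did not pass the test (adjusted p = 0.462).

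Timp3 in hearts labelled MCT1KO was 287, 228 and 324 CPM without a pump, 236, 224, 341 and 432 CPM with saline and 438, 242, 244, 354 and 257 CPM with Ang/PE, with full overlap. The response of Timp3 to Ang/PE against saline, as a difference between the genotypes, was -0.68 ± 0.30, again given as a value only. Mmp15 in these hearts was 116 to 221 CPM with saline and 117 to 155 CPM with Ang/PE. The comparison of Ang/PE with saline for this label had been used in choosing the genes, so its counts are given as a description and nothing is read from them. Mmp9 was the 1 gene of the 9 past the threshold (4.46% of all genes) and the 1 without overlap (5.42% of all genes).

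Mmp14 (ENSMUSG00000000957), the membrane-bound activator of Mmp2, ran from 14.998 to 36.5 CPM over all hearts. It was 22.3, 28.1, 26.6 and 31.1 CPM in WT and 26.2, 16.8 and 23.6 CPM in hearts labelled MCT1KO without a pump, and 23.7, 27.7 and 28.0 CPM and 24.5, 36.5, 28.7, 28.3 and 30.6 CPM with Ang/PE. With saline it was 14.998 to 27.9 CPM in WT (median 21.04) and 20.7 to 33.4 CPM in hearts labelled MCT1KO. The log2 fold change of Ang/PE against no pump for this label was 0.42 ± 0.18 (adjusted p = 0.284). The response to saline differed between genotypes by 0.55 ± 0.24 (adjusted p = 0.239). Timp2 (ENSMUSG00000017466), which takes part in that activation as well as inhibiting, was 104 to 261 CPM over all hearts, and Mmp3 (ENSMUSG00000043613), stromelysin 1, was 1.28 to 8.89 CPM. For neither was an unadjusted p below 0.05 in any comparison, and their groups overlapped in all of them.

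Between the genotypes 0 of 9 genes were called within each of the 3 treatments in edgeR and in DESeq2, and 0% of all genes were called by edgeR. At an unadjusted p below 0.05 there were 0 without a pump (12.2% of all genes), 1 with saline (Mmp9, beside 3014 of the 17682 genes) and 1 with Ang/PE (Mmp2, 6.92% of all genes). No gene was free of overlap between the genotypes in any treatment, against 11.5%, 2.88% and 5.10% of all genes. The median log2 fold change of the 9 was -0.28, 0.27 and 0.06, beside -0.0027, 0.03 and 0.0042 for all genes. Saline against no pump in hearts labelled MCT1KO gave 0 calls in edgeR and DESeq2 (0.00566% of all genes by edgeR), 0 at an unadjusted p below 0.05 (12.1% of all genes) and 0 without overlap (8.60% of all genes). The interaction terms gave 0 calls in edgeR for Ang/PE against saline, a term that contains the comparison used in the choice (0% of all genes, with 2 of 9 at an unadjusted p below 0.05 against 13.5%) and 0 for saline against no pump (0.00566%, with 1 of 9 against 17.2%).

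A wider list of 66 matrix proteolysis genes held the other Mmp genes, Adam and Adamts proteases, activators and inhibitors, and cathepsins; 53 passed the filter. In edgeR 0 of the 53 were called in 10 of the 11 comparisons, with 1 to 13 at an unadjusted p below 0.05, where 6.92% to 24.3% of all genes were. Where Ang/PE was compared with saline in hearts labelled MCT1KO, 6 of the 53 were called, 4 higher and 2 lower, against 4.46% of all genes, and the median log2 fold change was -0.02, beside -0.01 for all genes. At an unadjusted p below 0.05 there were 20 of the 53 (20.4% of all genes). This is the comparison in which Mmp9 had been noticed, and the wider list was chosen with earlier results known. Its counts and values here are therefore a description, from which nothing is concluded. Thbs1, thrombospondin 1, was 25.7 ± 2.87 CPM (SD, n = 4) with saline and 162 ± 95.4 CPM (n = 5) with Ang/PE, a log2 fold change of 2.66 ± 0.68. Adamts9, a proteoglycan-cleaving protease, was 57.4 ± 7.01 and 121 ± 59.5 CPM (1.08 ± 0.30). The lysosomal protease Ctsd was 501 ± 80.9 and 669 ± 45.9 CPM (0.42 ± 0.11). Adam9 was 59.9 ± 2.20 and 71.7 ± 8.63 CPM (0.26 ± 0.07). Adamts19 was 7.15 ± 8.49 and 1.18 ± 0.777 CPM (-2.61 ± 0.70). Pzp, a broad protease inhibitor of the alpha-2-macroglobulin family, was 1.97 ± 1.21 and 0.804 ± 0.376 CPM (-1.30 ± 0.38). Without saline replicate 4, 0 of the 53 were called (39 of all genes), while the log2 fold change was 2.73 for Thbs1, 1.04 for Adamts9, 0.28 for Adam9, 0.30 for Ctsd, -0.90 for Pzp and -1.33 for Adamts19. Between 0 and 7 were called when each heart was left out in turn, with 3 each without saline replicates 1 and 2, 1 each without Ang/PE replicates 1 and 2 and 2 without Ang/PE replicate 5. The fit of only the groups compared called 0, the fit without the low-count filter 1 and DESeq2 10. In WT the log2 fold change of Ang/PE against saline was 2.68 ± 0.63 for Thbs1, 0.88 ± 0.30 for Adamts9 and -1.06 ± 0.43 for Pzp. It was 0.01 ± 0.11 for Ctsd, 0.10 ± 0.08 for Adam9 and -0.29 ± 0.77 for Adamts19, and none of these was called. Of the 3 WT Ang/PE hearts, 1 had 409.6 CPM of Thbs1, and their median was 26.9 CPM. The lower 2 lay within the range of the WT saline hearts, 12.96 to 35.6 CPM (n = 6). The WT value for Thbs1 therefore rests mostly on 1 heart.

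The genes also varied together among hearts of the same group. Log2 CPM was expressed as the deviation from the group mean in all 25 hearts, and 36 pairs of the 9 genes were tested by permutation within groups (100000 resamples, two-sided). After Benjamini-Hochberg adjustment 12 pairs passed with both Pearson's r and Spearman's rho, 10 positive and 2 negative. The closest were Mmp2 and Timp2 (r = 0.85, rho = 0.87, permutation p = 1e-05, adjusted p = 0.00012 and 0.00018), and p = 1e-05 is the smallest these resamples can give. Mmp3 and Timp2 had r = 0.82 and rho = 0.82, and Mmp3 and Mmp14 r = 0.78 and rho = 0.77. Without the 2 hearts farthest from the median of the first gene, r was 0.83, 0.78 and 0.68. Of the 10 positive pairs, 9 were among Mmp2, Mmp3, Mmp14, Timp1 and Timp2, and the other was Mmp9 with Timp2 (r = 0.65; 0.45 without the 2 farthest hearts). Mmp14 with Timp1 missed the threshold for Pearson's r (r = 0.53, adjusted p = 0.0519). Mmp15 and Timp3 moved in opposite directions (r = -0.76, rho = -0.74, adjusted p = 0.00637 and 0.00803; r = -0.65 without the 2 farthest hearts), and so did Timp1 and Timp4 (r = -0.51, rho = -0.47, adjusted p = 0.0196 and 0.0489; r = -0.49). The values of a heart share its library, so depth and tissue composition are shared as well. Mmp15 and Timp3 also differ in GC content (59.6% and 46.8%), whose part in their correlation was not tested.

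**Figure D4:**
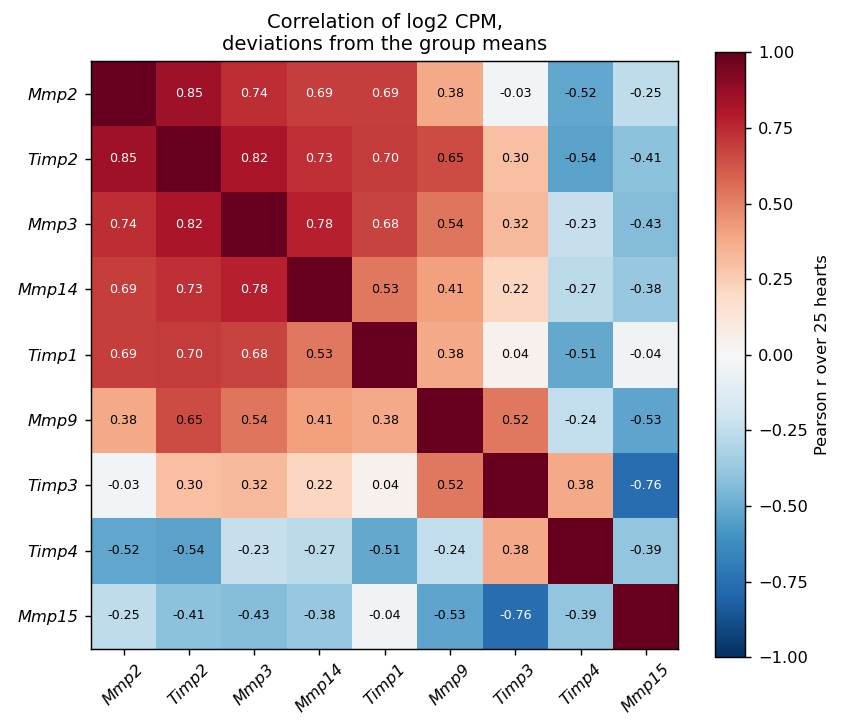
Pearson correlation of log2 CPM between the 9 tested genes over 25 hearts, after subtraction of the group means; red is positive and blue negative. The block of Mmp2, Timp2, Mmp3, Mmp14 and Timp1 runs up to 0.85, and Mmp15 with Timp3 is the lowest pair at -0.76.

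The same 5 genes followed the fibroblast markers. The correlation of their deviations with the summed level of the 6 markers was r = 0.94 for Timp2, 0.93 for Mmp2, 0.81 for Mmp3, 0.79 for Timp1 and 0.78 for Mmp14. For Mmp9 it was 0.49, for Timp3 0.15, for Mmp15 -0.33 and for Timp4 -0.52. Spearman's rho was 0.93, 0.95, 0.83, 0.79, 0.83, 0.45, 0.12, -0.24 and -0.49 in that order. By permutation within groups, adjusted over the 9 genes, 7 passed with both measures and Timp3 and Mmp15 did not (adjusted p = 0.525 and 0.101 for r). Without the 2 hearts farthest from the median marker level, r was 0.91 for Mmp2 and 0.93 for Timp2, and -0.37 for Timp4. Only fibroblast markers were correlated in this way, so these values do not set fibroblasts apart from other cell types.

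By the similarity of log2 CPM over the 25 hearts, with the group differences left in, the genes most like Mmp2 were Bgn (r = 0.97), Postn (0.96) and Col5a2 (0.95), which encode matrix proteins. Those most like Timp1 were Tmem119 (0.91), Mgp (0.89) and Col8a2 (0.89), and those most like Timp2 were Eef1a1 (0.94), Fbln5 (0.94) and Scpep1 (0.93). Genes close to Mmp3 were Ccdc80 (0.84) and Kcnt2 (0.80), and Mmp14 was closest to Capg, Anxa5 and Vat1 (all 0.85). Mmp9 was closest to Tnfsf13b (0.84), a cytokine of B cells, Trerf1 (0.82) and Tnxb (0.82). Mmp15 was closest to Llgl2, Fgd1 (both 0.90) and Gpr146 (0.89), Timp3 to Kcnq1ot1 (0.89), Srsf11 (0.84) and Klhl2 (0.84), and Timp4 to Rasgrp2, Tcim and Slc9a3r2 (all 0.93).

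Promoter sequences of 8 of the 10 genes were found in the RefSeq table of build GRCm38.p6 (Mmp2 and Mmp9 were not matched), as the 250 bases before the annotated start. Those of 4 of the genes that followed the fibroblast markers are printed 5′ to 3′ on the gene's strand, with matches to the searched motifs in capitals. The motifs, looked for on both strands, were AP-1 (TGANTCA), the GC box (GGGCGG, or CCGCCC on the other strand) and the TATA box (TATAAA), and they are found in 6.75%, 32.7% and 12.4% of 32817 promoters.
Mmp3, chr9:7445572-7445821, plus strand: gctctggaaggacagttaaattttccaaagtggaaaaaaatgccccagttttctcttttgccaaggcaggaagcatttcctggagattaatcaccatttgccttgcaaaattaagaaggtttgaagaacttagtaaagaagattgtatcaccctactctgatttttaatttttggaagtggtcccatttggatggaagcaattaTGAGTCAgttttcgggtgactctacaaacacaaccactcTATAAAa
Mmp14, chr14:54431348-54431597, plus strand: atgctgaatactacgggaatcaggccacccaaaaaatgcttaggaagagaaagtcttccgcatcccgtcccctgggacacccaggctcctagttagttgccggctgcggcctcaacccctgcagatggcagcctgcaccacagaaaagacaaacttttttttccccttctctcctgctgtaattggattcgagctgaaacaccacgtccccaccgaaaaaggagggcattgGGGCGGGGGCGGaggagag
Timp1, chrX:20869916-20870165, plus strand: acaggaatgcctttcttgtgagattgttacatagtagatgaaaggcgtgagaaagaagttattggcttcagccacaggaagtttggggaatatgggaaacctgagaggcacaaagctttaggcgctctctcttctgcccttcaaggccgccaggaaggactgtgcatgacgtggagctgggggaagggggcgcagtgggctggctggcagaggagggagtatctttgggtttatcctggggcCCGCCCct
Timp2, chr11:118355412-118355661, minus strand: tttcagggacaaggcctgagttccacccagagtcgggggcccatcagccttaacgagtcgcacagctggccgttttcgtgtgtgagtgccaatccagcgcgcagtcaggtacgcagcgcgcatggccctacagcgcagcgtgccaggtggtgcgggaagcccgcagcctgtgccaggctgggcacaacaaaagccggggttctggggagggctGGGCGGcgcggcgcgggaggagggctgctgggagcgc
The Mmp3 window holds 1 AP-1 match, 46 bases before the start, and 1 TATA box match 7 bases before it. The Mmp14 window holds 2 GC box matches, and those of Timp1 and Timp2 hold 1 each, with neither of the other motifs. None of the 3 motifs is in all 4 windows. Their GC content ran from 37.6% in Mmp3 to 68.0% in Timp2. A match is a description of letters and shows no binding.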

How the data were processed

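RNA of 25 mouse hearts was sequenced after ribosomal RNA depletion, with strand-specific libraries, per the labels' protocols. The counts deposited by the authors are whole numbers of reads per gene, with Ensembl identifiers, and were used without change. The submitters' processing notes name cutadapt 1.16, STAR 2.7.9a, featureCounts 1.6.3, DESeq2 1.42.1 and the build GRCm39 (mm39), with no order. The annotation release and the strand and multi-mapping settings of the counting are not given in the sources used here, so reads of overlapping genes cannot be told apart. Hearts were matched to columns by title, with 0 columns left over.

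The 10 genes, the wider lists and the tests were chosen with earlier results of these data known. Genes named are the 10 listed, genes of the wider list with an adjusted p below 0.05 (at most 5 per direction and comparison), and for each of the 9 tested genes the 3 with the most similar log2 CPM (prior count 2), taken from genes with a symbol and a mean log2 CPM above 0 (1 of these is not reported here). Of 56941 genes, 51948 had a symbol. Counts were tested with edgeR 4.0.16 in R 4.3.3: filterByExpr by group, TMM scaling, 1 model of 6 groups (glmQLFit, robust, 19 residual degrees of freedom), and glmQLFTest with Benjamini-Hochberg adjustment over 17682 genes, two-sided. Standard errors came from the F statistic. CPM used the TMM-scaled library size, and CPM per kilobase the merged exon length of GENCODE M21 (GRCm38). The model was tested on simulated counts. Alternatives were DESeq2 1.42.0, RLE scaling, no low-count filter, only the groups compared, a replicate block, a non-robust fit, an Xist covariate and each heart left out. Leaving out the 8 saline hearts with atrial markers was added after seeing the data. The depth of 12.2 to 24.9 (in units of 10⁶ counts) leaves 0 to 11 reads per heart for Mmp8 and 14 to 153 for Mmp9. Over 43 pairs of hearts within groups, chi-square over degrees of freedom was 3.60 or more, so none was treated as a copy.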

Additional observations from a re-analysis of the deposited data

Results flagged for a closer look

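In 3 of 36 checks of a gene within a group of 4 to 6 hearts, the highest or lowest heart stood apart by Dixon's 95% criterion, where chance gives about 1.8. Mmp9 in saline replicate 4 labelled MCT1KO stood at 3.19 on the log2 CPM scale, above the 1.76 to 1.94 of the other 3 hearts. Mmp2 in the same heart stood at 6.70, above 6.24 to 6.28. This heart also had the highest sums of atrial (3679 CPM) and fat cell (1069 CPM) markers, and the part of these in its Mmp9 and Mmp2 was not tested. Timp4 in WT replicate 1 without a pump stood at 5.62, below the 6.22 to 6.25 of the other 3 hearts.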

How the results depend on the processing

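Beside the 0 genes called for Ang/PE against saline in WT, DESeq2 called 1 (Timp3) and a fit of only the groups compared called 3 (Mmp15, Timp3 and Timp4). For the same step in hearts labelled MCT1KO, the comparison used in choosing the genes, the 1 gene past the threshold, Mmp9, became 0 when only the groups compared were fitted (log2 fold change -1.83) and 0 without the 8 saline hearts with atrial markers. Leaving out each heart gave 1 to 2 calls there, the 2 being Mmp9 and Timp4 without saline replicate 3; these counts are a description and say nothing about stability. For saline against no pump in WT, 0 calls became 2 with DESeq2 and 2 with only the groups compared (Mmp15 and Timp4 in both), and 0 to 1 with each heart left out (Mmp15 without WT replicate 1 without a pump). For Ang/PE against no pump in hearts labelled MCT1KO, 0 calls became 3 with DESeq2, 1 without the low-count filter and 1 with only the groups compared (Mmp9 in both), and 0 to 1 with each heart left out (Mmp2 without Ang/PE replicate 1). Timp4 in Ang/PE against saline, labelled MCT1KO, changed sign to -0.95 with 1 saline heart kept. The cause of these moves was not tested.

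With the replicate number as a block, Mmp9 passed in Ang/PE against no pump labelled MCT1KO, giving 1 call (log2 fold change -1.43, adjusted p = 0.0454), and no other count of calls among the 9 genes changed. The numbers share only a label: over 52 same-numbered pairs of hearts the mean correlation of deviations was 0.0094, with 9 above 0.1. The counts over all genes moved more than those of the 9. For saline against no pump in WT, 1168 genes were called, with 509 to 2287 under the alternatives that kept all hearts and 60 to 2234 with each heart left out, the 60 without WT replicate 3 without a pump. For Ang/PE against saline 3 were called in WT (0 to 945, and 131 without Ang/PE replicate 1), and 788 in hearts labelled MCT1KO (1 to 1224, and 39 and 1541 without saline replicates 4 and 3). For Ang/PE against no pump 89 were called in hearts labelled MCT1KO (11 to 385, and 1 without replicate 2 without a pump) and 0 in WT (25 by DESeq2). Of the wider list, the 6 genes called with Ang/PE against saline for the MCT1KO label became 2 under the replicate block and 3 when Xist was a covariate. Between genotypes 0 genes were called, with 24, 146 and 5 by DESeq2 in the no-pump, saline and Ang/PE hearts. In the saline hearts there were also 115 under the block, 82 with the Xist level as covariate, 28 in the non-robust fit, and 250 and 78 without replicates 3 and 2 labelled MCT1KO. For saline against no pump, that label had 1 call, 209 by DESeq2 and 626 without saline replicate 3. Depth limits Mmp8 (0 to 11 reads per heart) and Mmp9 (14 to 153).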
